A study of Homo sapiens with 10 samples.

Results

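Recurrent distal intergenic sites were the places far from genes where the peak list of HA-RBN, the longest of 6 ChIP-seq peak lists from 22RV1 prostate cancer cells, had a summit that other lists repeated. A member was an HA-RBN summit on chromosomes 1-22 or X that lay outside every protein-coding gene and more than 10 kb from any gene start or end. It also had to lie within 250 bp of a summit of the EV(RBN) list and of a summit in at least 1 of the other 4 lists. The rule found 1834 sites among 61506 distal intergenic HA-RBN summits, and the HA-RBN list held 242130 summits on these chromosomes in all. The members were chosen by measured values, the summit positions in the lists, so the presence of a summit is given below as a description and carries no test. Build hg38 and RefSeq gene records were used for every position.

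ChIP-seq (chromatin immunoprecipitation with sequencing) maps where a protein sits on DNA, and a peak summit is the base with the deepest stack of fragments. 22RV1 is an established human prostate cancer line, and all groups were transfected. The groups were an siRNA against RB1 and its control siRNA, a plasmid for HA-tagged RB residues 245-255 and its empty vector EV(245-255), and a plasmid for the HA-tagged insert named RBN and its empty vector EV(RBN). Each group was 1 library, so no spread between replicates exists, no p-value is given, and every interval covers counting error only. The 4 IgG libraries that accompany the siRNA pair and the 245-255 pair were not analysed here. The labels do not name the antibody, and the series title is about TRIM24. A genotype field files the HA-RB(245-255) library under a control group, whereas its title names the construct, and the title was followed.

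Sites between genes include enhancers, which bind transcription factors and co-regulators and act on promoters over long distances. TRIM24 is a chromatin reader and transcription co-regulator of nuclear receptors, and RB, the product of RB1, holds back E2F transcription factors. Regions between genes also hold most of the satellite repeats of the genome. In hg38 the centromeres are represented by modelled alpha-satellite arrays, which carry few annotated genes. No repeat annotation or genome sequence was used here, so the repeat content of the sites was not tested.

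The lists differed in their make-up, and this bears on every count of shared summits. Between 92.8% and 95.6% of the 3030.1 Mb spanned by the chromosomes lay inside a peak in the RB1 siRNA, control siRNA, HA-RB(245-255) and EV(245-255) lists, against 4.96% in HA-RBN and 2.79% in EV(RBN). Each peak has 1 summit. The median distance from a summit to the next was 58779 bp in RB1 siRNA, 93120 bp in control siRNA, 22167.5 bp in HA-RB(245-255), 25873 bp in EV(245-255), 6572 bp in HA-RBN and 8669 bp in EV(RBN). A site without a summit in 1 of the first 4 lists was therefore usually inside a peak whose summit lay elsewhere. Of the members, 764 were in that position in RB1 siRNA, 1003 in control siRNA, 782 in HA-RB(245-255) and 950 in EV(245-255). Nearly any position passes this measure, as 91.0% to 93.7% of all distal HA-RBN summits lay inside a peak of these lists. A missing summit therefore says nothing of the signal at a site, and it was not read as an absence.

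A member had a summit in 3 lists at 1050 sites, in 4 lists at 402, in 5 lists at 227 and in all 6 lists at 155. Distal summits recurred far less often than summits at gene ends, and at a share close to that of summits deep in gene bodies. The recurrent share was 2.98% of distal summits (exact 95% interval 2.85 to 3.12). It was 26.3% of 16405 summits no more than 1 kb from either end of any protein-coding gene (25.6 to 27.0) and 2.72% of 79219 summits inside a protein-coding gene and over 10 kb from its ends (2.61 to 2.84). Without sites over 500 kb from any gene end the distal share was 2.60%, under that of gene bodies rather than over it. Once recurrent, 8.45% of distal sites (7.22 to 9.82) had a summit in all 6 lists, against 24.5% at gene ends (23.2 to 25.8) and 10.9% in gene bodies (9.62 to 12.3). Distal sites were also lower, with a median of 6 HA-RBN fragments, against 18 at recurrent gene ends and 8 at recurrent sites in gene bodies. Over all summits, recurrent or not, the median was 3 HA-RBN fragments at distal summits, 8 at gene ends and 3 in gene bodies. The part of this height in the recurrent shares was not tested.

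The fragment number at a summit was recovered from the authors' fold enrichment and p-value, and enrichment is that number over the library's genome-wide background. Members held a median of 6 fragments in HA-RBN and 4 in EV(RBN). Their median enrichment was 9.46 in HA-RBN (middle 50% of sites 6.31 to 18.9) and 10.9 in EV(RBN) (8.18 to 19.1). Where the other lists had a summit, the median was 11 fragments in RB1 siRNA (814 sites), 11 in control siRNA (666 sites), 7 in HA-RB(245-255) (907 sites) and 8 in EV(245-255) (768 sites). As enrichment these medians were 20.4, 26.6, 28.0 and 42.7 in the same order. Most members were weak, and 214 reached 20 fragments in HA-RBN and 83 in EV(RBN). The authors' fold enrichment, which is the summit over the caller's local background with 1 added to each, had a median of 3.81 at members in HA-RBN and 3.50 in EV(RBN).

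Sites found in more lists were higher in the 2 lists that every member shares. In HA-RBN the median was 5 fragments at sites in 3 lists, 8 in 4 lists, 9 in 5 lists and 10 in all 6 lists. In EV(RBN) the medians were 4, 5, 5 and 6 fragments in that order. The HA-RBN peaks widened as well, with a median width of 647 bp at sites in 3 lists and 870 bp at sites in all 6.

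**Figure D1:**
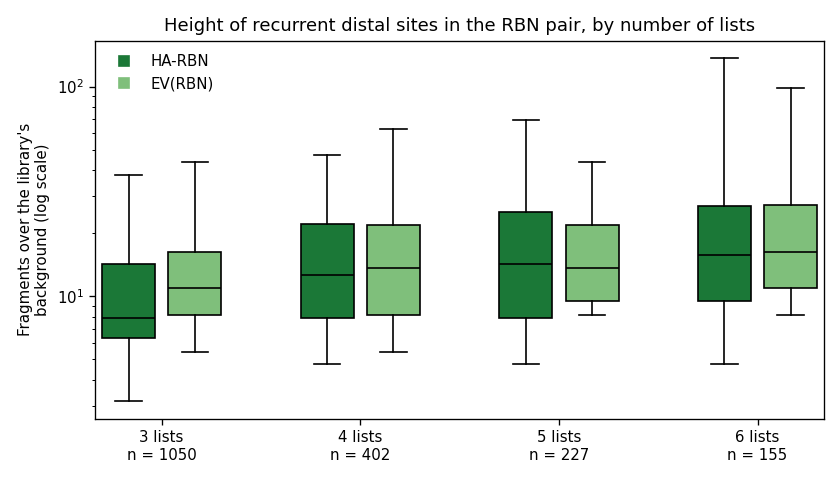
Fragments at the summit over the library's genome-wide background (log axis) at recurrent distal sites, for HA-RBN and EV(RBN), by the number of lists with a summit. Boxes span the middle 50% of sites with the median as a line, and whiskers run from the 5th to the 95th percentile. The HA-RBN median is 7.89 at the 1050 sites in 3 lists and 15.8 at the 155 sites in all 6.

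The 10 sites that were highest in all 6 libraries lay from 13.2 kb to 43.2 kb from the nearest gene of any kind, which was protein-coding at 4 of them. They were ranked by their lowest enrichment in any library, and the first stood far above the others. It is on chromosome 1 at position 236097262, in a peak from 236096983 to 236097435, 13.6 kb from the pseudogene ACO2P2 and 32.2 kb from NID1, which encodes the basement membrane protein nidogen. Its summit held 3283 fragments in RB1 siRNA, 3420 in control siRNA, 5206 in HA-RB(245-255), 4257 in EV(245-255), 3237 in HA-RBN and 1304 in EV(RBN). The local background used by the peak caller was high there too, at 78.1 times the genome value in HA-RB(245-255), 123 times in EV(245-255), 265 times in HA-RBN and 159.9 times in EV(RBN). It was at the genome value, 1.00 times, in RB1 siRNA and control siRNA. HA-RBN and EV(RBN) have no IgG library. Their local background may therefore be a different measure, here and below, from that in the lists with an IgG partner.

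The second site, on chromosome 15 at 99928249, lay 43.2 kb from ADAMTS17, a secreted metalloprotease gene. It held 287 fragments in RB1 siRNA, 339 in control siRNA, 141 in HA-RB(245-255), 184 in EV(245-255), 852 in HA-RBN and 155 in EV(RBN), so HA-RBN was the highest in fragments and in enrichment. The local background there was 78.1 times the genome value in HA-RB(245-255), 189 times in HA-RBN and 47.2 times in EV(RBN), and 1.00 times in the other 3 libraries. The third, on chromosome 16 at 1025396, lay 38.4 kb from SOX8, which encodes a transcription factor. Its fragments were 396 in RB1 siRNA, 384 in control siRNA, 284 in HA-RB(245-255), 99 in EV(245-255), 271 in HA-RBN and 82 in EV(RBN). In fragments, both plasmid libraries were above their empty vectors there, and the siRNA libraries were close to each other. The 99 fragments of EV(245-255) were the lower of 2 solutions. The local background differed, at 1.00 times the genome value in RB1 siRNA, 292 times in control siRNA, 2.38 times in HA-RB(245-255), 21.3 times in EV(245-255), 21.1 times in HA-RBN and 9.97 times in EV(RBN). The authors' fold enrichment, which divides by it, was thus 7.89 in RB1 siRNA and 2.46 in control siRNA.

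The fourth site is on chromosome 7 at 89925033, in a peak from 89924780 to 89925276, 42.7 kb from the antisense RNA gene STEAP2-AS1. The nearest protein-coding gene, STEAP1, which encodes a membrane protein abundant on prostate cancer cells, is 229 kb away. The summit held 469 fragments in RB1 siRNA, 375 in control siRNA, 203 in HA-RB(245-255), 274 in EV(245-255), 302 in HA-RBN and 46 in EV(RBN). As enrichment these were 871, 908, 812, 1462, 476 and 125, so EV(245-255) was the highest and EV(RBN) the lowest. The local background was at the genome value in RB1 siRNA, control siRNA and EV(245-255), and it was 15.8 times that value in HA-RB(245-255), 22.0 times in HA-RBN and 5.09 times in EV(RBN).

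The other 6 leading sites had between 22 and 169 fragments in every library. At 2 of them the nearest gene was protein-coding, namely PIM3, 15.5 kb away on chromosome 22 (position 49945254), and PSMD14, 26.1 kb away on chromosome 2 (161282326). At the other 4 a non-coding gene or pseudogene was closer. These sites lay 14.9 kb from LINC02441 and 225 kb from TMEM132C on chromosome 12 (128042084), 13.2 kb from SUMO2P21 and 81.7 kb from PLS3 on chromosome X (115732556), 29.3 kb from LOC100506236 and 289.8 kb from NFE2L3 on chromosome 7 (25862403), and 21.2 kb from LOC102723935 and 49.6 kb from RAB4A on chromosome 1 (229221514). PIM3 encodes a serine/threonine kinase, PLS3 an actin-bundling protein, PSMD14 a deubiquitinase of the proteasome, NFE2L3 a leucine zipper transcription factor and RAB4A a small GTPase of recycling endosomes. The PIM3 site, 15.5 kb from the gene, held 92 fragments in RB1 siRNA, 103 in control siRNA, 52 in HA-RB(245-255), 78 in EV(245-255), 92 in HA-RBN and 41 in EV(RBN).

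**Figure D2:**
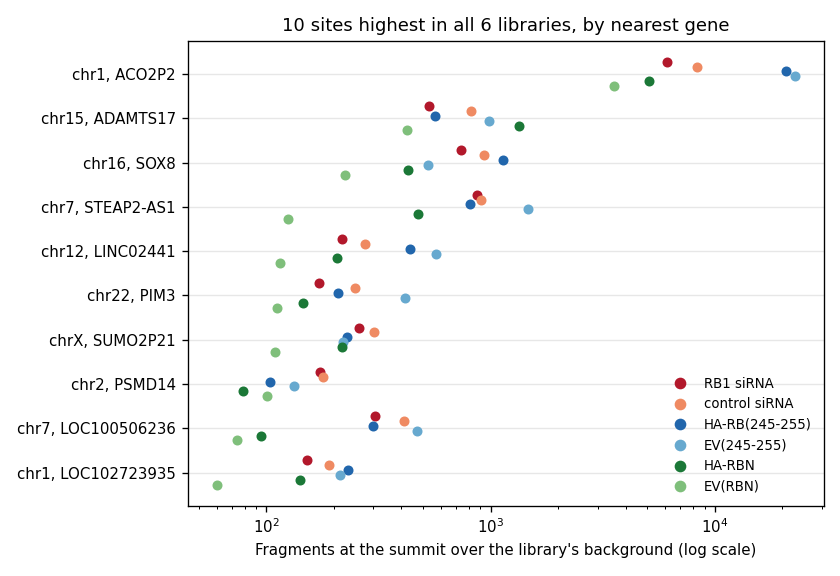
Fragments at the summit over each library's genome-wide background (log axis) at the 10 sites with the highest lowest value over all 6 libraries, labelled by chromosome and nearest gene. Each point is 1 library. The first site ranges from 3557 in EV(RBN) to 22713 in EV(245-255), and EV(RBN) is the lowest library at 9 of the 10 sites.

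Across the 155 sites in all 6 lists the highest library was mostly the same, and the lowest was divided between HA-RBN and EV(RBN). HA-RB(245-255) had the highest enrichment at 14.8% of them and EV(245-255) at 74.8%. The lowest enrichment was in HA-RBN at 45.2% and in EV(RBN) at 51.0%. Enrichment over background moves with the quality of a library as well as with binding, and these cannot be told apart with 1 library a group. The lists with an IgG partner also had longer peaks, with median widths from 18202 bp to 83571.5 bp. The median width was 521 bp in HA-RBN and 450 bp in EV(RBN). A summit of a long peak is the highest point of a longer stretch, and the part of this in the order was not tested.

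Nearest genes were sorted with 9 gene lists covering pathways named or implied by the series. The nearest protein-coding gene of a distal site need not be the gene it acts on. Of the 1834 sites, 9 were nearest to a gene of the prostate lineage and androgen receptor list (0.491%, against 0.434% of all distal HA-RBN summits), 2 to the RB and E2F list (0.109% against 0.151%) and 5 to the mTOR list (0.273% against 0.319%). DUSP and MAP kinase genes had 8 sites (0.436% against 0.577%), neuroendocrine genes 5 (0.273% against 0.255%), p53 targets 3 (0.164% against 0.174%), TRIM24 relatives and partners 1 (0.0545% against 0.143%) and genes of other organs 1 (0.0545% against 0.0553%). These shares were close to those of all distal summits, or rested on few sites. DNA replication genes had 22 sites (1.20% against 0.465%), of which 18 were nearest to PRIM2, the large primase subunit on chromosome 6. None of those 18 was closer than 935 kb to PRIM2, and 16 were over 500 kb from any gene, so they lie in a long stretch without annotated genes.

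Single sites from the lists include some that were high in every library. The site nearest to CCNE1, the cyclin that drives entry into S phase with CDK2, lay 20.7 kb from the gene on chromosome 19 at 29845037. It held 170 fragments in RB1 siRNA, 148 in control siRNA, 43 in HA-RB(245-255), 50 in EV(245-255), 64 in HA-RBN and 19 in EV(RBN). The site nearest to FOS, a subunit of the AP-1 transcription factor, lay 19.6 kb from the gene on chromosome 14 at 75259186. Its fragments were 112 in RB1 siRNA, 79 in control siRNA, 50 in HA-RB(245-255), 50 in EV(245-255), 20 in HA-RBN and 12 in EV(RBN).

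The site 58.6 kb from GADD45G, a stress-response gene, on chromosome 9 at 89665177, had 54 fragments in RB1 siRNA, 37 in control siRNA, 32 in HA-RB(245-255), 35 in EV(245-255), 44 in HA-RBN and 20 in EV(RBN). Lower sites were also in all 6 lists. The CBX5 site, 13.0 kb from the gene for the heterochromatin protein HP1 alpha on chromosome 12 at 54217894, had 14 fragments in RB1 siRNA, 16 in control siRNA, 8 in HA-RB(245-255), 10 in EV(245-255), 11 in HA-RBN and 6 in EV(RBN). The SCG2 site, 11.1 kb from this secretogranin gene of neuroendocrine cells on chromosome 2 at 223613464, had 9 fragments in RB1 siRNA, 6 in control siRNA, 5 in HA-RB(245-255), 6 in EV(245-255), 16 in HA-RBN and 5 in EV(RBN).

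Other listed sites were in fewer lists. The POLD3 site on chromosome 11 at 74544059, 48.5 kb from this DNA polymerase delta subunit gene, had 13 fragments in control siRNA, 37 in HA-RB(245-255), 30 in EV(245-255), 17 in HA-RBN and 5 in EV(RBN). The SESN3 site on chromosome 11 at 95436566, 204 kb from this gene for a sestrin that restrains mTORC1, had 13 in RB1 siRNA, 27 in control siRNA, 9 in EV(245-255), 10 in HA-RBN and 3 in EV(RBN). Its RB1 siRNA and EV(245-255) numbers were each the lower of 2 solutions. The SPRY4 site on chromosome 5 at 142403726, 78.7 kb from this inhibitor of receptor tyrosine kinase signalling, had between 4 and 15 fragments in 5 libraries. The CDK6 and POMC sites were in 3 lists each, with at most 9 fragments in any.

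Distance from genes divided the sites. The median member lay 36554.5 bp from the nearest gene end, and the longest distance was 3551368 bp. Of summits 10 to 20 kb from a gene end 2.60% recurred, of those 20 to 50 kb away 2.50%, 50 to 100 kb 2.44% and 100 to 500 kb 3.24% (2.78 to 3.74). Beyond 500 kb the share was 7.57% (6.84 to 8.36), or 360 of 4753 summits. These 360 are called far sites below, and the other 1474 near sites. The limit of 500 kb was chosen after the positions were seen.

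Far sites were unevenly spread. Chromosome 1 held 66 of them, chromosome 5 held 54, chromosome 19 held 53, chromosome 10 held 28 and chromosome 12 held 27, and chromosomes 15 and X held none. On chromosome 1 they ran from position 122355306 to 125123256, on chromosome 5 from 47326356 to 49646094 and on chromosome 19 from 24925860 to 27163126. They also lay close together, with 259 of 360 (71.9%) within 50 kb of another member, against 239 of 1474 near sites (16.2%). Of 22 groups with 5 or more sites, 18 held far sites only.

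**Figure D3:**
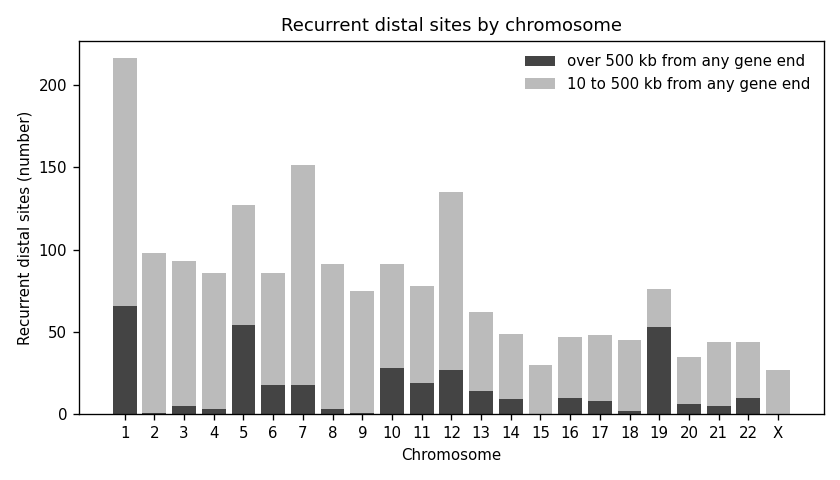
Number of recurrent distal sites on each chromosome, split into sites over 500 kb from any gene end (dark) and sites 10 to 500 kb away (light). Chromosomes 1, 5 and 19 have 66, 54 and 53 far sites, and on chromosome 19 these outnumber the 23 near sites.

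The largest group had 13 sites on chromosome 1 from 124370155 to 124613384. HA-RBN held between 5 and 22 fragments at these sites. A summit was present at 6 of them in RB1 siRNA, 9 in control siRNA, 1 in HA-RB(245-255) and none in EV(245-255). The group of 10 sites on chromosome 5 from 49465925 to 49646094 was higher, with between 10 and 77 fragments in HA-RBN (median 27) and a median of 25 in EV(RBN). A group of 7 sites on chromosome 1 from 143185217 to 143262652, not among the far sites, differed in its lists. The nearest protein-coding gene was the histone gene H3-7, and the median distance to a gene end of any kind was 77020 bp. The sites of this group had no summit in RB1 siRNA or control siRNA, 5 in HA-RB(245-255) and 2 in EV(245-255), with a median of 23 fragments in HA-RBN and 30 in EV(RBN).

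Far and near sites differed in the lists that repeated them. At 311 far sites (86.4%) a summit came from the siRNA lists and not from the 245-255 lists, at 16 (4.44%) the reverse held, and at 33 (9.17%) both kinds had one. At near sites the numbers were 280 (19.0%), 669 (45.4%) and 525 (35.6%). The rule used these lists, so the same was counted over all distal HA-RBN summits, members or not. Of 4753 far and 56753 near summits, 8.52% and 3.37% had a summit in RB1 siRNA, 7.91% and 2.15% in control siRNA, 1.3% and 6.11% in HA-RB(245-255), 0.589% and 5.09% in EV(245-255), and 24.7% and 7.93% in EV(RBN).

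**Figure D4:**
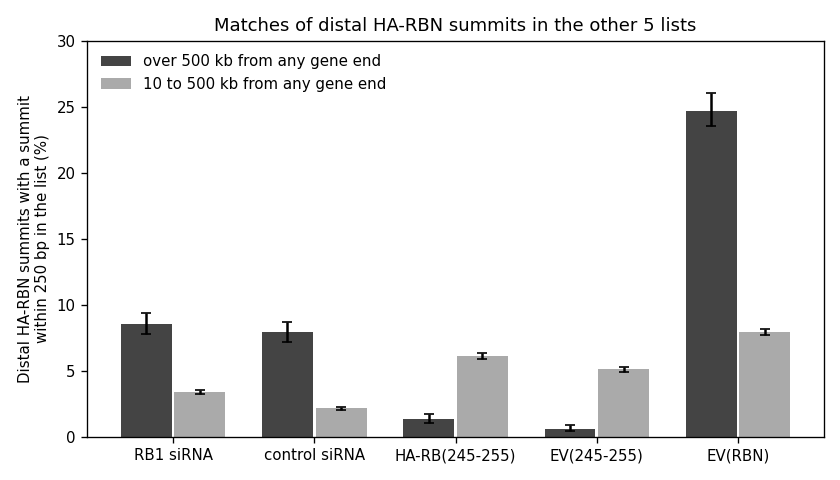
Share of distal HA-RBN summits with a summit within 250 bp in each of the other 5 lists, for summits over 500 kb (dark) and 10 to 500 kb (light) from any gene end, with exact 95% intervals. Far summits have the higher share in RB1 siRNA (8.52% against 3.37%), control siRNA and EV(RBN), and the lower share in HA-RB(245-255) and EV(245-255) (0.589% against 5.09%).

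Summit spacing and local background moved with this difference. In far stretches the median distance between summits was 20092.5 bp in RB1 siRNA and 26220 bp in control siRNA, against 65055 bp and 115982.5 bp in near stretches. In the 245-255 lists it ran the other way, with 72349 bp in HA-RB(245-255) and 219221.5 bp in EV(245-255) in far stretches, against 23023 bp and 31345 bp in near stretches. All but 3 of the 360 far sites lay inside an HA-RB(245-255) peak and all but 2 inside an EV(245-255) peak, as did 99.2% and 99.5% of all far HA-RBN summits, so these lists covered the far stretches with few, long peaks. The share of each list's own summits in far stretches was 5.69% in RB1 siRNA, 7.05% in control siRNA, 0.253% in HA-RB(245-255), 0.129% in EV(245-255), 1.96% in HA-RBN and 2.40% in EV(RBN).

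The local background was over 2 times the genome value at 114 of 206 far sites with a summit in RB1 siRNA and at 97 of 210 in control siRNA. It was so at 4 of 42 in HA-RB(245-255), 0 of 19 in EV(245-255), 69 of 360 in HA-RBN and 114 of 360 in EV(RBN). At near sites the shares were 18.8%, 14.3%, 13.5%, 30.6%, 26.5% and 24.9% in the same order. In the 4 lists with an IgG partner this background takes fixed steps. The commonest raised value at members was 1.58 times in HA-RB(245-255), under the limit of 2. It was over the limit in the others, at 2.20 times in EV(245-255), 3.52 times in RB1 siRNA and 6.05 times in control siRNA. The shares of these 4 lists therefore cannot be set against each other. Over each list's own distal summits, far before near, the shares were 59.4% and 23.5% in RB1 siRNA, 46.3% and 13.7% in control siRNA, 9.01% and 23.5% in HA-RB(245-255), 10.4% and 41.2% in EV(245-255), 5.43% and 4.74% in HA-RBN, and 14.0% and 5.78% in EV(RBN). In HA-RBN, members and all distal summits thus ran in opposite directions. The part of summit spacing and local background in the difference between far and near sites was not tested.

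Far and near sites had close median heights in the siRNA lists and HA-RBN, and far sites were higher in the other lists. The median far site held 10 fragments in RB1 siRNA and 10 in control siRNA, against 11 and 11 at near sites with a summit there. It held 11 in HA-RB(245-255) (42 sites) and 11 in EV(245-255) (19 sites), against 7 and 8, and 7 in HA-RBN and 6 in EV(RBN), against 6 and 4. The median width of far peaks was 66559 bp in HA-RB(245-255) and 194735 bp in EV(245-255), against 18765 bp and 26312 bp for near peaks. A far summit in these lists was thus the highest point of a longer stretch, and the part of this in the heights was not tested. The highest far site had 77 fragments in HA-RBN, whereas near sites reached 3237. Of the far sites, 2 were in all 6 lists. The site on chromosome 17 at 25389933 had 55 fragments in RB1 siRNA, 48 in control siRNA, 45 in HA-RB(245-255), 20 in EV(245-255), 28 in HA-RBN and 24 in EV(RBN). Its EV(245-255) number was the lower of 2 solutions. The site on chromosome 10 at 39967638 had 44, 35, 38, 28, 11 and 21 fragments in the same order.

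Knockdown of RB1 was compared with the control siRNA at the 235 sites with a summit in both lists and at least 20 fragments together. The ratio of enrichment was taken relative to the median over all 4766 shared summits of the pair, so 0 means a change like that of the typical shared site. Shared summits of the lists lay within 250 bp of each other. At members each summit lay within 250 bp of the HA-RBN summit, so the compared summits could lie further apart. The part of this looser matching in the shares below was not tested. The median ratio at recurrent distal sites was -0.02 on the log2 scale (interval -0.13 to 0.06). More than 1 log2 unit from 0 lay 12 sites above and 9 below, together 8.94% of sites, against 3.21% of all shared summits (1.89% above and 1.32% below). The counting interval of a single site excluded 0 at 25 of the 235 sites (10.6%), against 7.7% of all shared summits. Far sites had a median of -0.19 (50 sites) and near sites one of 0.02 (185 sites), with both spreads reaching beyond 1 unit on each side.

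The highest log2 ratio, 1.82 (0.21 to 3.85), was at a near site on chromosome 4 at 125986175. It lay 78.0 kb from LINC02379 and 493243 bp from FAT4, with 17 fragments in RB1 siRNA and 4 in control siRNA. The 17 fragments were the lower of 2 solutions, which the interval does not cover. A near site on chromosome 18 at 78437833 lay 80.7 kb from LOC105372219 and 541985 bp from SALL3. It had 35 fragments in RB1 siRNA and 9 in control siRNA, a ratio of 1.70 (0.61 to 2.94). At the low end the site on chromosome 18 at 79550686, 21.4 kb from NFATC1, a calcium-responsive transcription factor gene, had 15 fragments in RB1 siRNA and 39 in control siRNA, a ratio of -1.64 (-2.61 to -0.75). The lowest of all was a far site on chromosome 5 at 48596257 with 7 fragments in RB1 siRNA and 24 in control siRNA, a ratio of -2.04 (-3.50 to -0.78).

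The RB fragment of residues 245-255 was compared with its empty vector at 224 sites. The median log2 ratio was -0.01 (-0.09 to 0.08), with 10 sites more than 1 unit above and 6 below, together 7.14%, against 4.19% of all 6222 shared summits (1.90% above and 2.30% below). The counting interval excluded 0 at 28 sites (12.5%), against 4.84% of all shared summits. Members were matched less tightly than shared summits here too, and the part of this in the shares was not tested. Only 9 far sites had enough fragments in both lists, and their ratios ran from 0.04 to 1.42 with a median of 0.87, so all 9 were above 0. Several solutions existed at 4 of the 42 far sites with an HA-RB(245-255) summit and at 2 of the 19 with an EV(245-255) summit. The lowest was kept, and a higher one would move the ratio. Near sites had a median of -0.04 (215 sites).

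Strong sites with a difference between HA-RB(245-255) and EV(245-255) included the SOX8 site already described, with a ratio of 1.57 (1.23 to 1.91). Its EV(245-255) fragment number was the lower of 2 solutions. The higher one would lower the ratio, and the interval does not cover this. The highest ratio, 1.70 (1.51 to 1.88), was at a site on chromosome 4 at 190122855, with 1018 fragments in HA-RB(245-255) and 324 in EV(245-255). It lay 10.1 kb from LOC107986338 and 50919 bp from DUX4. DUX4 lies in a repeat array near the end of that chromosome, and the local background at the site was 469 times the genome value in HA-RB(245-255) and 2.49 times in EV(245-255). This background was not part of the ratio, and its part in the difference was not tested. The lowest ratio, -1.99 (-3.03 to -1.05), was at a site on chromosome 1 at 3992163, with 12 fragments in HA-RB(245-255) and 49 in EV(245-255). It lay 16.1 kb from LINC02780 and 91891 bp from C1orf174.

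HA-RBN and EV(RBN) were both in the rule, so their ratio is described only. At 412 sites with at least 20 fragments together the median log2 ratio was -0.47 (-0.63 to -0.36) relative to all 6842 shared summits. There were 23 sites more than 1 unit above and 123 below, together 35.4%, beside 12.2% of all shared summits (4.98% above and 7.25% below). The counting interval excluded 0 at 127 sites (30.8%), beside 10.2% of all shared summits. Far sites had a median of -1.21 (108 sites, 2 of them above 0) and near sites one of -0.22 (304 sites). The sign depended on the scale. Relative to the shared distal summits alone the median was 0.16, with 60 sites above and 32 below, together 22.3%, beside 26.6% of all shared summits (25.2% above and 1.36% below). On that scale the members' share past 1 unit was thus under that of all shared summits, not over it. The change of scale adds 0.63 to every site, which gives medians of -0.58 at far and 0.41 at near sites.

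Large single ratios were found at both ends of that pair. The site on chromosome 2 at 239644636 lay 11.8 kb from LOC105373966 and 242987 bp from HDAC4, a histone deacetylase gene. It had 43 fragments in HA-RBN and 4 in EV(RBN), a ratio of 2.06 (0.60 to 4.0). The far site on chromosome 7 at 58893176 had 7 fragments in HA-RBN and 19 in EV(RBN), a ratio of -2.80 (-4.30 to -1.49).

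**Figure D5:**
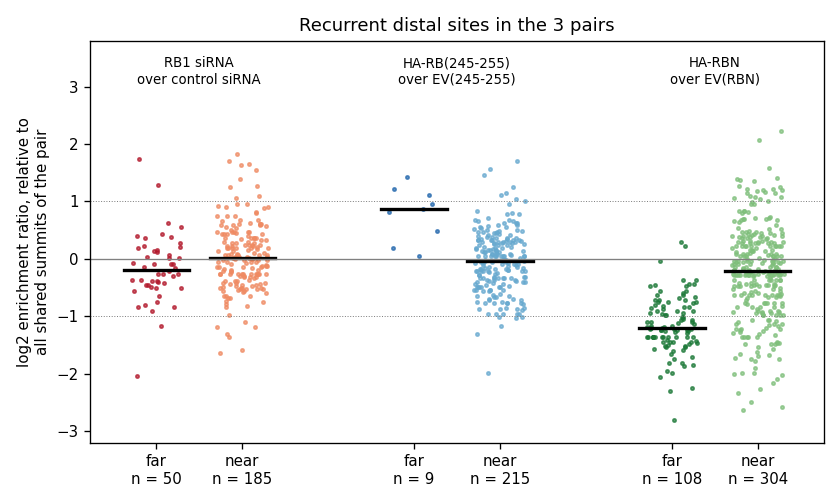
Log2 ratio of enrichment at recurrent distal sites in the 3 pairs, relative to the median of all shared summits of each pair, for sites over 500 kb (far) and 10 to 500 kb (near) from any gene end. Each point is 1 site with at least 20 fragments in the 2 libraries together, thick lines are medians and dotted lines mark 1 log2 unit. The medians are -0.19 and 0.02 for RB1 siRNA over control siRNA, 0.87 and -0.04 for HA-RB(245-255) over EV(245-255), and -1.21 and -0.22 for HA-RBN over EV(RBN), each far before near.

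Not every member was free of transcribed sequence. Inside a long non-coding RNA gene or a pseudogene, but over 10 kb from its ends, lay 259 sites (14.1%), of which 235 were in long non-coding RNA genes. The nearest gene end belonged to a long non-coding RNA gene at 731 sites, to a pseudogene at 527, to a transcribed pseudogene at 134 and to a protein-coding gene at 394.

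At the edges of the rule, the members closest to a gene end lay 10003 bp from NAPGP1 (chromosome 10 at 88689678) and 10012 bp from LOC105371574 (chromosome 17 at 19470983), with 4 and 3 HA-RBN fragments. Just outside lay a summit 9993 bp from CALML5 (chromosome 10 at 5488704) with 41 HA-RBN fragments and one 9989 bp from MYL4 (chromosome 17 at 47237639) with 3. At the 250 bp limit the sites on chromosome 1 at 25517931 and 41395530 were members, with 10 and 8 HA-RBN fragments. Summits on chromosome 6 at 63078707 and on chromosome 2 at 206983731, 251 bp from the nearest match, were not, with 3 HA-RBN fragments each.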

How the data were processed

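Each library is 1 deposited peak list. The tools named in the submitters' processing notes are MACS2 2.1.0, Bowtie 1.1.2, Trimmomatic 0.33 and bcl2fastq 2.17, with build hg38. Neither settings nor control libraries are given in the sources used here. The lists give the authors' fold enrichment of each peak (a ratio of summit to local background), their −log10 q-value and −log10 p-value, all as deposited, and the summit offset. Peaks were listed per library, and the lists reach down to a −log10 p-value of 1.30.

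Fragments were recovered from the authors' fold and p-value by solving fold = (fragments + 1)/(background + 1) together with the Poisson tail. In the lists with an IgG partner 1 fragment counts as 0.0176, 0.0166, 0.0512 and 0.0434 (RB1 siRNA, control siRNA, HA-RB(245-255), EV(245-255)), and between 3.23% and 7.45% of their peaks had several solutions, of which the lowest was kept. The background was 0.539, 0.413, 0.250, 0.187, 0.634 and 0.367 fragments per base in the order RB1 siRNA, control siRNA, HA-RB(245-255), EV(245-255), HA-RBN, EV(RBN). Intervals of shares are exact Clopper-Pearson 95% intervals, those of medians are binomial, and all cover counting error only.

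Python 3.11.15, numpy 2.4.6, pandas 2.3.3, scipy 1.17.1 and matplotlib 3.10.9 were used. The RefSeq table gave 58419 gene records, of which 19821 were protein-coding, after records with scaffold coordinates were left out. Genes of any kind counted for the distance of 10 kb.

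Sites were named by rule: the 10 in most lists with the highest lowest enrichment, the 3 highest and 3 lowest ratios of each pair, up to 2 sites per gene list, the largest group within 50 kb and 2 sites on each side of each limit, of which a selection is printed. The groups on chromosomes 1 (nearest protein-coding gene H3-7) and 5, and the 2 far sites in all 6 lists, were chosen after their values were seen. The members and the 9 gene lists were chosen with earlier results of these data known, and 334 of 335 list symbols matched. Motifs and base composition need a genome sequence and were not analysed here.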

Additional observations from a re-analysis of the deposited data

How the results depend on the processing

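The count of recurrent sites, their share of distal summits and the count in all 6 lists followed the limits of the rule, in that order here. With summits within 100 bp they were 779, 1.27% and 49, within 500 bp 3145, 5.11% and 248, and over 50 kb from gene ends 757, 3.93% and 48. With ends of protein-coding genes only they were 3196, 3.31% and 302, and with HA-RBN peaks of −log10 q at least 5 they were 524, 48.2% and 76. The next 3 settings and the closest-fitting fragment number were chosen after seeing the data. Support from the siRNA lists only gave 1149 sites and 1.87%, support from the 245-255 lists only gave 2.02%, and without sites over 500 kb from gene ends the share was 2.60%.

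The median ratios of RB1 siRNA over control siRNA and of HA-RB(245-255) over EV(245-255) stayed inside their intervals under every setting run. Their counts past 1 log2 unit, 21 and 16, were 7 of 115 sites (6.09%, against 1.36% of all shared summits) and 8 of 102 (7.84% against 2.04%) with at least 40 fragments. With the authors' fold enrichment they were 1 (0.426% against 0.252%) and 5 (2.23% against 0.804%). For the 245-255 pair the count was also 43 of 432 sites with no minimum of fragments (9.95%, against 8.2% of all shared summits). With the closest-fitting fragment number it was 29 of 236 sites (12.3%, against 4.19% of all shared summits, which kept the lowest fit). In the siRNA and 245-255 pairs, members were matched less tightly than all shared summits under these settings too. For HA-RBN over EV(RBN) the median changed sign, to 0.16, when scaled to distal intergenic summits, with 92 sites past 1 unit (22.3%, against 26.6% of all shared summits, where the main scale gives 35.4% against 12.2%), and the cause was not tested. With no minimum of fragments the median was -0.15, and 392 of 1834 sites were past 1 unit (21.4%, against 19.6% of all shared summits). The members' share was thus only slightly above that of all shared summits there, unlike on the main setting. With the authors' fold enrichment the median was -0.16 (13 sites, 3.16% against 3.41%), and with summits within 100 bp it was -0.64. Without sites over 500 kb from gene ends it was -0.22. There 76 of 304 sites were past 1 unit, against 12.2% of all shared summits. With at least 40 fragments 60 sites were past 1 unit (42.6% against 11.3%). Scaled to gene end summits, HA-RBN over EV(RBN) had 17 sites above and 145 below (39.3% together, against 12.8% of all shared summits). HA-RB(245-255) over EV(245-255) then had 11 above and 4 below (6.7% together, against 4.1%).

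No paired analysis was possible because each group has 1 library. Most sites held few fragments, so the counting interval of a single weak site was wide.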
